A study of Mus musculus with 14 samples.

Results

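The genes described here encode the classical guidance cues of growing axons and their receptors. They were chosen by name among the protein-coding genes with deposited counts: semaphorins (Sema), plexins (Plxn), neuropilins (Nrp), ephrins (Efn), Eph receptors (Eph), Slits, Robo receptors, netrins (Ntn), Unc5 receptors and Dcc. The rule found 68 members among 17927 genes. The semaphorin system held 31 of them (20 semaphorins and 11 plexins or neuropilins), the ephrin system 22 (8 ephrins and 14 Eph receptors), the netrin system 8 (3 netrins and 5 receptors) and the Slit system 7 (3 Slits and 4 Robo receptors). The list thus holds 34 ligands and 34 receptors, and the rule used no measured value.

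RNA-SEQ counts came from whole brains taken at postnatal day 2 (P2), 7 from WT and 7 from Capn15 KO mice. Capn15 encodes calpain 15, a calpain protease related to the fly gene small optic lobes, and the KO mice carry a lacZ-Neo allele of it on a C57BL/6J background. The mice were untreated and, by the study's methods, came from 6 litters. The column names of the counts hold letter codes A to F and a final F or M, which are read here as litter and sex although the names do not spell this out. Litter B gave 2 brains of each genotype and every other litter 1 of each, and 2 WT and 4 KO brains were female. WT and KO libraries of the same number are compared below as pairs. The sexes of a pair differed in every pair except pair 7, where both brains were male. In pairs 1, 2, 3 and 6 the WT brain was male and the KO brain female, and pairs 4 and 5 had the reverse. Genotype and sex were thus partly confounded within litters, and only pairs 4, 5 and 7 separate them. Counts of pairs and exact tests take no account of sex, and without pair 7 only pairs of opposite sex remain. The labels give neurons as the cell type and brain as the tissue, but markers of glia, endothelium, meninges, choroid plexus and blood were counted in every library, so the samples are described as brain. The question set by the design is which mRNAs change in abundance when Capn15 is lost.

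Axon guidance cues steer a growth cone by attracting or repelling it. Semaphorins act through plexins, and most of the secreted class 3 semaphorins bind through neuropilins as well. Ephrins are held at the cell surface, A-type by a lipid anchor and B-type by a transmembrane stretch, and signal at cell contacts through Eph receptor tyrosine kinases. Slits repel axons at the midline through Robo receptors. Netrin attracts axons through Dcc and repels them where Unc5 receptors are present. In the brain of a newborn mouse the long tracts are still growing and synapses are beginning to form, and the same molecules also act on blood vessels and migrating cells.

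The libraries held 39937477 to 57422382 counts in WT and 37620954 to 70910163 in Capn15 KO, so that a floor of 3 counts was at most 0.0797 CPM (a gene's count scaled to the size of its library, here with TMM factors). No member was near it, since the lowest count of any member in any library was 28, for Epha1. Capn15 itself was at 18.7 to 27.3 CPM in WT, with a median of 26.2, and at 12.2 to 20.2 CPM in the KO, with a median of 13.9. The library labelled KO 7 held 20.2 CPM and the library labelled WT 7 18.7 CPM, which goes against these labels, and all other pairs were lower in the KO. The log2 fold change of Capn15 (KO minus WT) was -0.81 (SE 0.118, adjusted p = 0.0747 with edgeR's quasi-likelihood test and Benjamini-Hochberg adjustment over all genes), and it was -0.98 without both libraries of pair 7 (adjusted p = 1.58e-06). Over the 23 alternative fits the adjusted p of Capn15 lay between 1.8e-07 and 0.29. Genotype counts that changed without pair 7 are given with that value beside them.

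The levels of the members in WT brains spanned a wide range. Levels were compared between genes as CPM per kb of exon in the 7 WT libraries. They ran from 55.5 ± 2.96 (SD, n = 7) for Efnb3, the B-type ephrin known as a midline barrier to corticospinal axons, down to 0.297 ± 0.102 for Epha1, with a median of 7.70 over the 68 members. Efnb3 stood alone at the top: its lowest WT library, at 49.2 CPM per kb, was above the highest of the next member, Plxna1, at 37.6. Below it the order is close-packed, and of the 67 pairs of neighbours 4 had WT ranges that did not overlap. These pairs were Efnb3 above Plxna1, Sema4a above Sema3a, Slit2 above Sema3d and Epha2 above Robo3, and all other neighbours overlapped. The order of Sema4a and Sema3a is reversed by longest transcript. All exons of Sema3a add up to 13868 bp and its longest transcript to 5930 bp, against 5406 and 3205 bp for Sema4a.

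**Figure D1:**
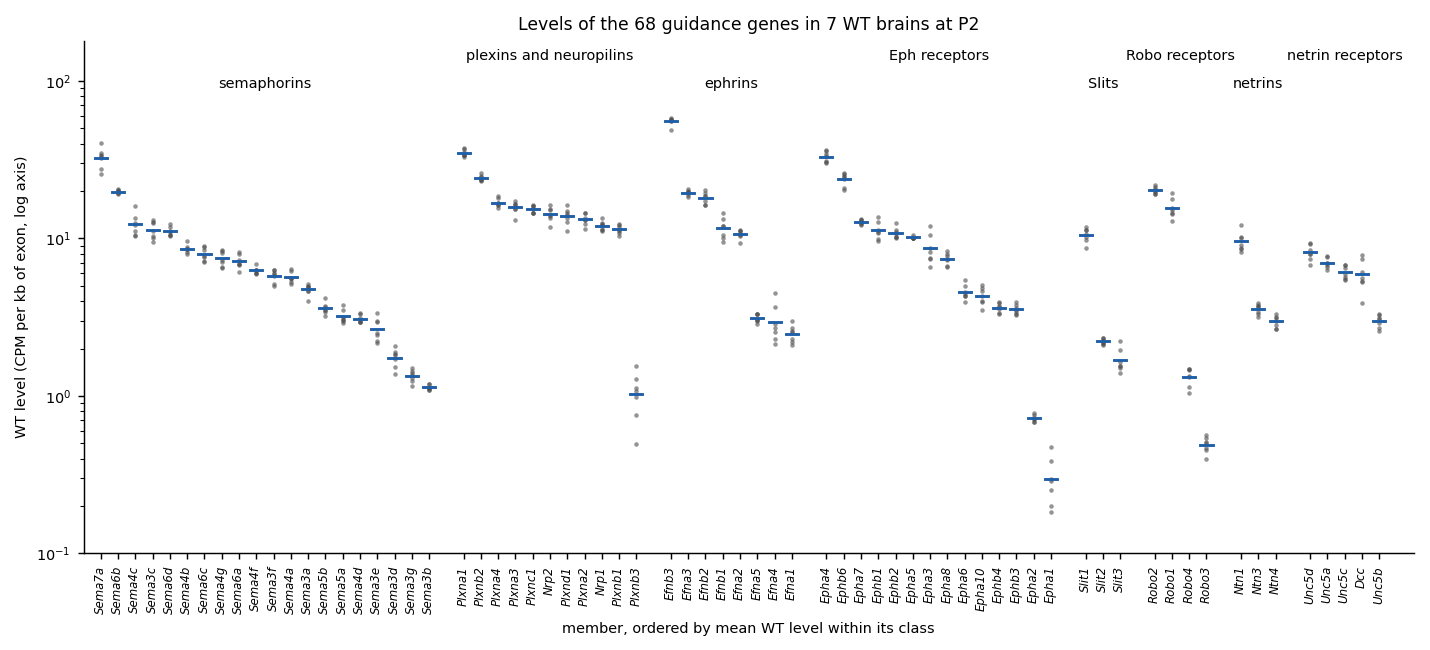
Levels of the 68 members in WT brains at P2, as CPM per kb of exon on a log axis, grouped by class and ordered by mean within it. Points are the 7 WT libraries and bars their mean, and a reader should see Efnb3 alone at the top at 55.5 and the low tails of each class, with Epha1 the lowest at 0.297.

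The spread between WT brains differed among members. The coefficient of variation ran from 1.85% for Epha5 to 34.3% for Epha1, the member with the fewest counts, with a median of 8.68%. Within the netrin system it reached 22.6% for Dcc. Counting the longest transcript in place of all exons kept 7 of the 10 highest members (Spearman correlation of the 68 levels 0.963, a description over genes that share libraries). Orders within a class are given by all exons and can change with this choice. All exons of Nrp1, for example, add up to 9785 bp and its longest transcript to 3645 bp.

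Among the semaphorins, Sema7a, the lipid-anchored member of the family, had the highest level in WT at 32.6 ± 4.78 CPM per kb, followed by the transmembrane Sema6b at 19.8 ± 0.51 and Sema4c at 12.3 ± 2.02. The secreted Sema3g and Sema3b had the lowest at 1.35 ± 0.117 and 1.13 ± 0.0409. Their receptors were as a class more abundant, with a median of 14.3 CPM per kb over the 11 plexins and neuropilins against 6.03 over the 20 semaphorins. The receptor Plxna1, a signalling partner of neuropilins, led that class at 34.9 ± 1.80, ahead of Plxnb2 at 24.2 ± 0.996 and Plxna4 at 16.9 ± 1.01, while Plxnb1 was at 11.4 ± 0.715. The exception was Plxnb3, known from oligodendrocytes, at 1.03 ± 0.343.

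In the ephrin system, Efna3 followed Efnb3 at 19.5 ± 0.761 CPM per kb and Efnb2 at 18.1 ± 1.55, and Efna4 and Efna1 were the lowest ligands at 2.95 ± 0.837 and 2.49 ± 0.314. Epha4, a receptor for Efnb3 and for A-type ephrins, had the highest level among the Eph receptors at 33.1 ± 2.57. It was followed by Ephb6, which lacks kinase activity, at 23.8 ± 2.23 and by Epha7 at 12.7 ± 0.411. Epha2 and Epha1, known mainly from epithelia, were the lowest at 0.724 ± 0.0361 and 0.297 ± 0.102.

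The Slit system was uneven. Robo2 and Robo1, the main Slit receptors of axons, were at 20.2 ± 1.10 and 15.7 ± 2.19 CPM per kb, whereas Robo4, known from endothelium, and Robo3, known from commissural axons before they cross, were at 1.32 ± 0.170 and 0.492 ± 0.0544. Of the ligands, Slit1 was at 10.5 ± 1.08, Slit2 at 2.22 ± 0.0952 and Slit3 at 1.69 ± 0.293. In the netrin system Ntn1 was at 9.57 ± 1.34, against 3.57 ± 0.265 for Ntn3 and 2.97 ± 0.260 for the laminin-binding Ntn4. By all exons the receptors lay closer together, at 8.17 ± 0.943 for Unc5d, 7.01 ± 0.530 for Unc5a, 6.10 ± 0.594 for Unc5c, 5.93 ± 1.34 for Dcc and 3.0 ± 0.273 for Unc5b. Their order depends on the length used, since all exons of Unc5c add up to 19135 bp and its longest transcript to 9646 bp. Reads of Ntn3 are uncertain, since its annotated exons overlap Tbc1d24 on the same strand, and 23 members overlapped some gene on their own strand and 30 on the other.

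The genotype comparison asked whether any of these mRNAs changed when Capn15 was lost. None of the 68 members passed an adjusted p under 0.05 in edgeR's quasi-likelihood fit (a count of 0, against 1 gene of 17927, or 0.00558%, and 7 genes without pair 7), and the lowest adjusted p of a member was 0.466. With DESeq2, the likelihood ratio test or limma-voom the count was also 0. The measured folds were small: they ran from -0.25 for Sema3b to 0.17 for Efna4 on the log2 scale, and the median over the members was 0.02, against 0.00153 over all genes. The standard errors had a median of 0.0415. For 62 of the 68 members the 95% interval of the log2 fold change lay within 0.32 of 0, which is a 24.8% higher level at the upper bound, and for 42 it lay within 0.14, or 10.2%.

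**Figure D2:**
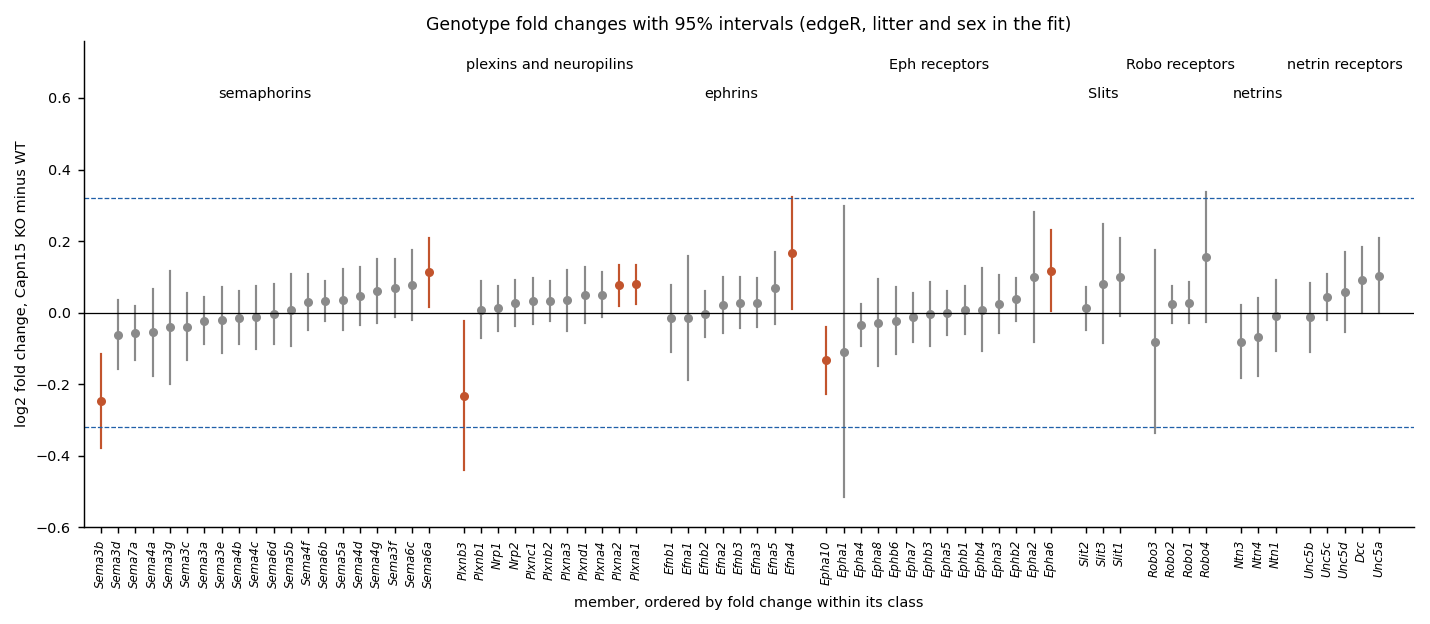
Log2 fold changes (Capn15 KO minus WT) of the 68 members by class, with points for the fitted values, bars for 95% intervals and dashed lines at 0.32 on either side of 0. The 8 members with an unadjusted p under 0.05 are in orange, 62 intervals lie between the dashed lines, and none of the 68 members passed the adjusted threshold.

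Without adjustment, 8 of the 68 members (11.8%) had a p under 0.05, against 5.14% of all genes. Of these, 5 were higher in the KO (2.88% of all genes were, at that threshold) and 3 were lower (2.26% of all genes). Plxna1, Plxna2, Sema6a, Efna4 and Epha6 were the higher ones, and Sema3b, Epha10 and Plxnb3 the lower ones. The count was sensitive to single libraries, including those of pairs 4 and 5, where WT was female and KO male. It was 5 without KO 1, KO 7, WT 1 or WT 7, 13 without KO 4, KO 5 or WT 5 and 14 without WT 4, and it was 5 without both libraries of pair 7, where 3.74% of all genes passed. Of those 5, Epha10, Plxna1, Plxnb3 and Sema3b were among the 8 and Ntn3 was not. A fit of genotype alone, without litter and sex, gave 1 member, beside 1.45% of all genes.

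Sema3b, a secreted class 3 semaphorin on chr9:107597674-107609229 (GRCm38, minus strand), was the member that separated the genotypes. Its counts corresponded to 5.20 CPM in the lowest WT library, 5.37 in the median one and 5.71 in the highest. In the KO they corresponded to 4.21, 4.64 and 5.10. The 2 groups did not overlap, which held for no other member and for no other of the 17927 genes (0.00558%), Capn15 included, and KO was below WT in 7 of 7 pairs. The log2 fold change was -0.25 (SE 0.0611, 95% interval -0.38 to -0.11), with an unadjusted p of 0.00128 and an adjusted p of 0.466 in edgeR's quasi-likelihood test. The absence of overlap and of a pair in the other direction fixes the exact two-sided permutation p at 0.000583 (over 3432 regroupings) and the exact sign-flip p at 0.0156, the smallest each can give, so these restate the same observation. The permutation test was under 0.05 for 1 of the 68 members and for 1.73% of all genes. Random regrouping would separate the groups of a given gene with a probability of 0.000583. That is more often than the 1 of 17927 genes seen, so being the only such gene is no added evidence.

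The fold of Sema3b was -0.28 without pair 7 and lay between -0.28 and -0.21 with any 1 library left out. Its unadjusted p was under 0.05 in all 23 alternative fits, and its adjusted p lay between 0.0962 and 1.0 in them. Sema3f, the neighbouring gene 72.3 kb away and a repellent of the same class, was at 26.0 to 32.9 CPM in WT and at 28.4 to 34.9 CPM in the KO, with a log2 fold change of 0.07 (SE 0.0377) and groups that overlapped.

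Markers of the choroid plexus, the epithelium that secretes cerebrospinal fluid, moved in the same direction as Sema3b. The summed level of 6 such genes was 740 to 975 CPM in WT and 607 to 844 CPM in the KO, and it was lower in the KO in 7 of 7 pairs although the ranges overlapped. Ttr made up most of this sum, with a WT mean of 846 CPM against 895 for the sum. By single marker, Ttr and Kcnj13 were higher in the KO in no pair, Folr1 in 2 pairs and Clic6, Otx2 and Kl in 1 each. None of the 6 passed the adjusted threshold (the lowest was 0.0942 with edgeR, for Ttr at a log2 fold change of -0.32), and 5 (Ttr, Folr1, Kcnj13, Clic6 and Otx2) were lower at an unadjusted p under 0.05. The sum of 6 leptomeningeal markers was 358 to 547 CPM in WT and 403 to 530 CPM in the KO, and was lower in 5 of 7 pairs. Lum was lower at an unadjusted p under 0.05 (log2 fold change -0.24), and none of the 6 was higher at that p. The 8 caudal hindbrain Hox genes had a median log2 fold change of -0.28, against -0.22 for the choroid plexus list. Hoxb3 (-0.29) and Hoxc4 (-0.53) were lower at that p, although the Hox sum was lower in the KO in 2 of 7 pairs. Ptgds, the 1 gene called between genotypes by the quasi-likelihood fit of all 14 libraries, encodes a prostaglandin synthase known from choroid plexus and meninges. It had a log2 fold change of -0.38 (SE 0.0488, adjusted p = 0.0398 with edgeR), and other fits called between 0 and 34 genes. In whole brain, fewer cells of a type and less RNA per cell cannot be told apart. No marker in these lists was at 0 in all libraries, and their part in the value of Sema3b was not tested.

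The other 7 members of the 8 had genotype groups that overlapped. Plxna1 was at 298 CPM in the lowest WT library, 308 in the median and 341 in the highest, against 297, 331 and 357 in the KO. It was higher in 5 of 7 pairs, with a log2 fold change of 0.08 (SE 0.0251, unadjusted p = 0.00699 and adjusted p = 0.729 with edgeR). Plxna2, another plexin of the A group, was at 197, 226 and 250 CPM in WT and 221, 234 and 254 in the KO, with a log2 fold change of 0.08 (SE 0.0268). Both plexins thus differed between the medians by less than the width of either group.

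Sema6a, a transmembrane ligand of A-type plexins, was at 53.5, 60.8 and 72.5 CPM (lowest, median and highest) in WT. In the KO it was at 63.1, 66.3 and 71.2 CPM, for a log2 fold change of 0.11 (SE 0.0453, unadjusted p = 0.0265 with edgeR), which was 0.06 without pair 7 or either of its libraries (unadjusted p = 0.111 without the pair). The KO libraries spanned the narrower range and lay inside the WT one. Plxnb3 was at 3.19, 6.94 and 10.02 CPM in WT and 3.12, 6.06 and 8.38 in the KO, with a log2 fold change of -0.23 (SE 0.097), and was lower in the KO in 6 of 7 pairs (higher in 1). That value was -0.12 without KO 4 or WT 4. Its spread within each genotype was the widest among the plexins and followed litter, as described below.

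In the ephrin system, Epha10, an Eph receptor without kinase activity, was at 25.2, 31.2 and 36.6 CPM in WT and 24.5, 29.8 and 33.2 in the KO. It was higher in 2 pairs, with a log2 fold change of -0.13 (SE 0.0439, unadjusted p = 0.0092 and adjusted p = 0.757 with edgeR). Efna4, a lipid-anchored ephrin that overlaps a gene on the other strand, was at 3.40, 4.30 and 7.16 CPM in WT and 4.0, 4.76 and 6.28 in the KO, for a log2 fold change of 0.17 (SE 0.0729), or 0.11 without KO 5 or WT 5. Epha6 was at 20.9, 23.5 and 28.7 CPM in WT and 22.3, 25.9 and 28.7 in the KO, for a log2 fold change of 0.12 (SE 0.0532), or 0.05 without pair 7 or either of its libraries (unadjusted p = 0.202 without the pair) and 0.18 without KO 5 or WT 5. The KO ranges of Efna4 and Epha6 lay within those of WT. The lowest ligand by fold, Efnb1, was at -0.02 (SE 0.0433).

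**Figure D3:**
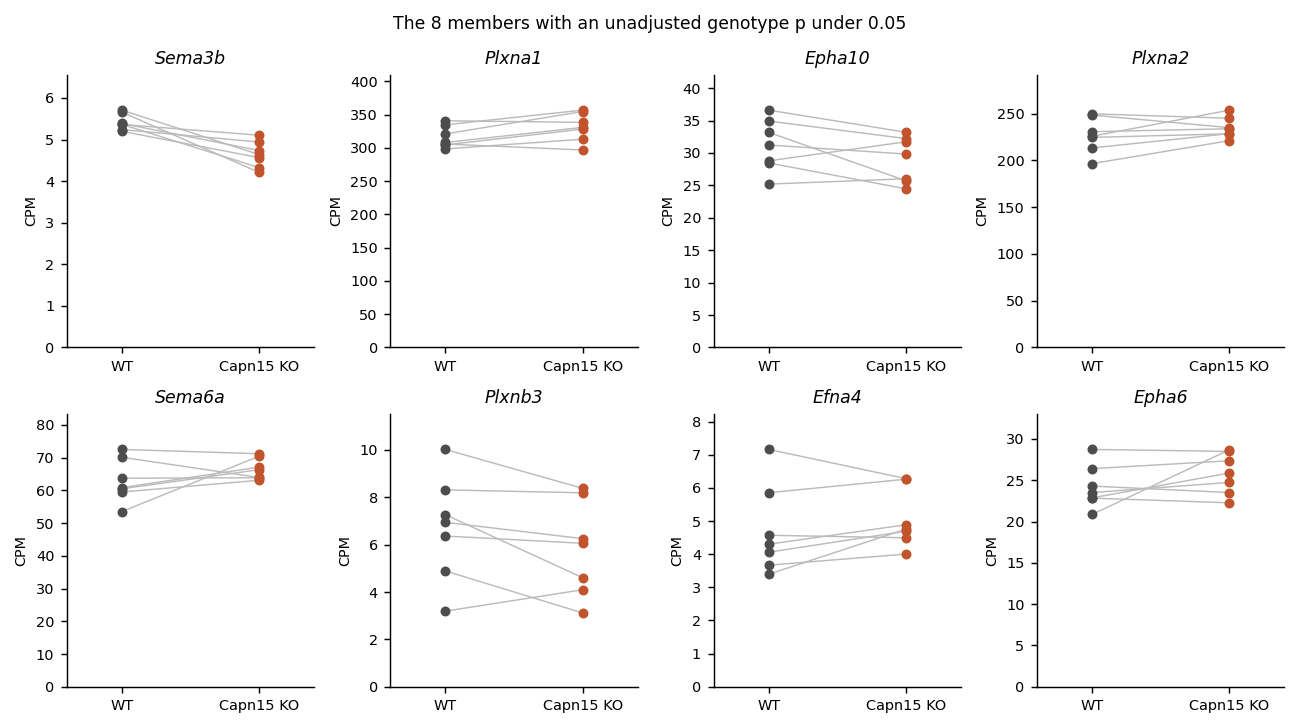
CPM of the 8 members with an unadjusted genotype p under 0.05 in each library, with WT at left, Capn15 KO at right and lines joining libraries of the same number, which share a litter. Sema3b is the panel where the groups do not overlap, with WT at 5.20 to 5.71 and KO at 4.21 to 5.10, and all other panels overlap.

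By system, the median log2 fold change was 0.03 for the semaphorin system, 0.00359 for the ephrin system, 0.03 for the Slit system and 0.02 for the netrin system. Without pair 7 the medians were 0.0111, 0.0095, 0.0243 and 0.00643 in that order. They moved by over 1.5 times with single libraries left out: the lowest were 0.00299 for the semaphorin system (without KO 5 or WT 5), -0.00414 for the ephrin system (without KO 1, against 0.0287 without KO 4 or WT 4) and 0.00341 for the netrin system (without WT 7, with like values without KO 7, KO 5 or WT 5). Values above 0 were found for 40 of the 68 members, beside 51.4% of all genes. By class, 10 of the 11 plexins and neuropilins were above 0, with Plxnb3 the exception, and the 3 netrins were below it. Receptors were above 0 in 23 of 34 cases and ligands in 17 of 34.

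None of the Slit members had an unadjusted p under 0.05. Slit1 was at 51.3, 63.6 and 69.6 CPM (lowest, median and highest) in WT and 61.8, 65.8 and 75.7 in the KO, with a log2 fold change of 0.10 (SE 0.051, 95% interval -0.00923 to 0.21). Slit2 was at 0.01 (SE 0.0279) and Slit3 at 0.08 (SE 0.0771). Among their receptors Robo2 and Robo1 were measured most tightly, at log2 fold changes of 0.02 (SE 0.0237) and 0.03 (SE 0.0269), so that their 95% intervals ended at 0.07 and 0.09. Robo4 was at 0.16 (SE 0.0846) and Robo3, its neighbour 0.553 kb away on the opposite strand, at -0.08 (SE 0.119). Both had low levels and wide intervals, and the 6 endothelial markers summed to 165 to 215 CPM in WT and 165 to 210 CPM in the KO. Of these markers Cldn5 was higher in the KO at an unadjusted p under 0.05 (log2 fold change 0.10, higher in 6 of 7 pairs). None was lower at that p, and Pecam1 was at -0.06. Their part in the value of Robo4 was not tested.

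The netrin members were similar. Ntn1 was at -0.01 (SE 0.0462) on the log2 scale, Ntn3 at -0.08 (SE 0.0477) and Ntn4 at -0.07 (SE 0.0504). The receptor Unc5a had the largest value of the system, 0.10 (SE 0.049, unadjusted p = 0.0538 with edgeR), and was higher in the KO in 6 of 7 pairs. Dcc was at 51.0, 74.2 and 104 CPM in WT and 64.6, 82.0 and 103 in the KO, for 0.09 (SE 0.0429, unadjusted p = 0.0541 with edgeR), and was also higher in 6 of 7 pairs. Without pair 7 the value of Dcc was 0.05 and that of Unc5a 0.08. Unc5c was at 0.04 (SE 0.0298), Unc5d at 0.06 (SE 0.0517) and Unc5b at -0.01 (SE 0.0449).

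Further genes of the guidance pathway were taken from a list of 73: 23 co-receptors and other ligands and 50 intracellular effectors. None of them was called at an adjusted p under 0.05 by edgeR, with a lowest adjusted p of 0.318. At an unadjusted p under 0.05 there were 9, all higher in the KO and none lower, beside 2.88% and 2.26% of all genes. Srgap1, a GTPase-activating protein that binds Robo receptors, had the smallest p, with 52.0 ± 5.57 CPM in WT and 56.9 ± 4.46 in the KO (SD, n = 7 each). Its log2 fold change was 0.16 (SE 0.0345, unadjusted p = 0.000515 and adjusted p = 0.318 with edgeR), and it was higher in 6 of 7 pairs.

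Farp1, an exchange factor that acts with A-type plexins, was at 136 ± 8.88 CPM in WT and 143 ± 3.37 in the KO and higher in 7 of 7 pairs, with a log2 fold change of 0.09 (SE 0.0279). The other effectors were Mical2, an actin-oxidizing enzyme (0.11), Srgap3 (0.08) and the actin-binding Ablim1 (0.05). The co-receptors and other ligands were Flrt1, a leucine-rich repeat protein (0.11), Rgma, a ligand of neogenin (0.10), the adhesion molecule L1cam (0.07) and Cdon (0.10). The count fell from 9 to 5 without KO 1, to 4 without KO 7, WT 7 or both, to 5 with a block for replicate number and to 0 in a fit of genotype alone.

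The sexes were compared in the same fit. At an adjusted p under 0.05 edgeR called 0 of the 68 members between males and females, beside 12 genes (0.0669%) of all, and the lowest adjusted p of a member was 0.927. At an unadjusted p under 0.05 there were 2 members, Plxna2 at a log2 difference of 0.08 (male minus female) and Epha10 at -0.11, beside 5.04% of all genes. Efna4 had the next smallest p, 0.0638 with edgeR, at a log2 difference of 0.16. Plxna2, Epha10 and Efna4 were also among the 8 members with an unadjusted genotype p under 0.05, each with the same sign in both comparisons. Sex and genotype were partly confounded within the pairs.

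The litters differed far more than the genotypes or sexes. In the same fit edgeR called 30 of the 68 members between litters at an adjusted p under 0.05 (44.1%), against 5301 of all genes (29.6%). The receptors accounted for 18 and the ligands for 12. By class, 8 of the 11 plexins and neuropilins were called, 7 of 20 semaphorins, 6 of 14 Eph receptors, 3 of 8 ephrins and 2 of 4 Robo receptors. Of the netrin receptors Dcc and Unc5c were called, and 1 Slit (Slit3) and 1 netrin (Ntn1). The difference between the highest and the lowest litter ran from 0.17 (Robo2) to 1.28 (Plxnb3) on the log2 scale.

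Litter B lay at 1 end of nearly all of these differences. It was the highest litter for 17 of the 30 and the lowest for 11. The remaining members called were Sema3f, highest in litter C, and Plxna3, highest in litter E. Of the 5301 genes called between litters, B was the highest for 2156 (12% of all genes) and the lowest for 2635 (14.7%). The place of litter B was thus not particular to the members. Litter F was the lowest for 13 of the 30 members, beside 1131 of the 5301 genes called (6.31% of all genes). All 4 B libraries lay above all other 10 for 6 of the 68 members, Epha3, Robo1, Dcc, Ephb1, Sema4c and Efna4, beside 7.45% of all genes. They lay below all other 10 for 4, Sema7a, Sema3e, Plxnd1 and Sema3d, beside 9.77% of all genes.

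**Figure D4:**
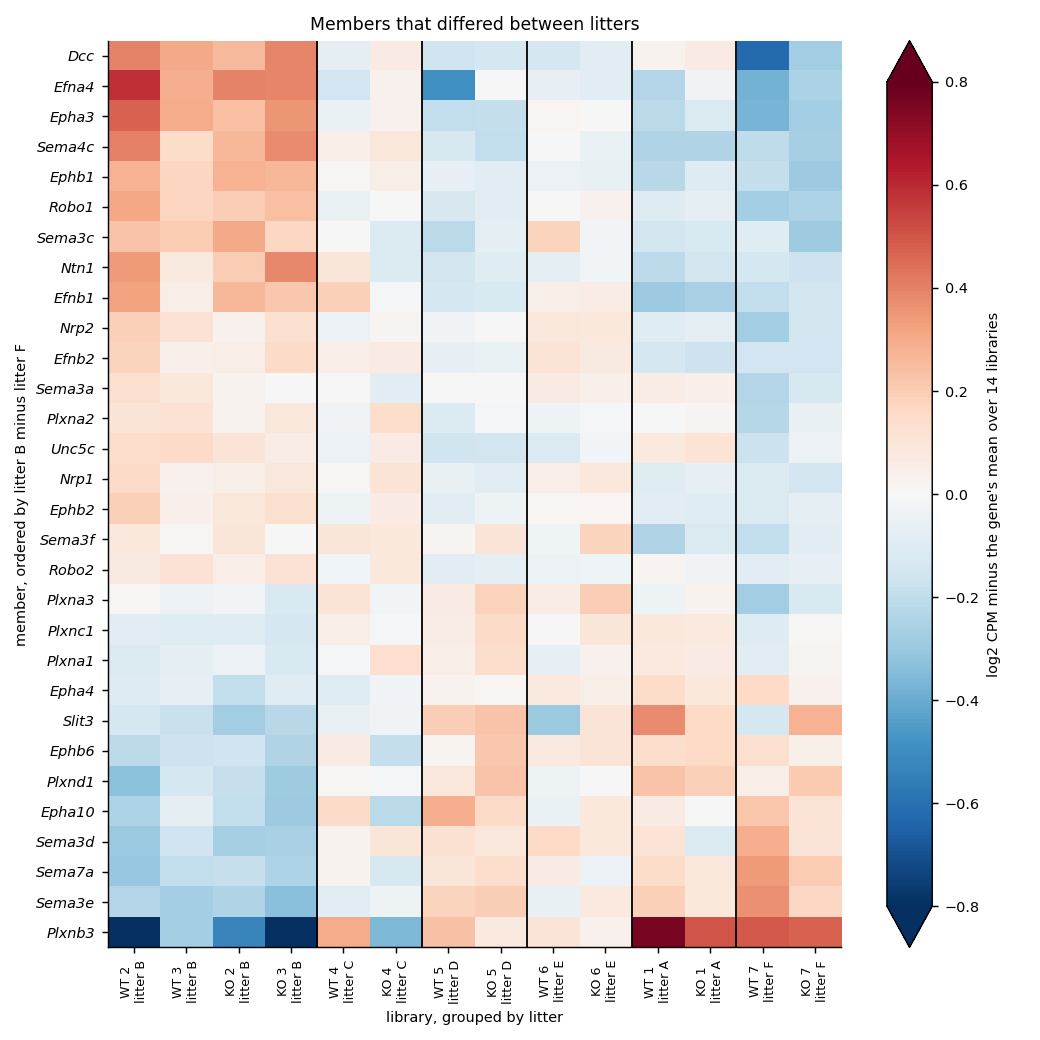
Log2 CPM minus the mean over the 14 libraries for the 30 members called between litters, with libraries in columns grouped by litter and members in rows ordered by the difference of litter B from litter F. The 4 columns of litter B are red in the upper rows and blue in the lower ones, in both genotypes, and litters A and F tend to the opposite colour.

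Upstream sequences of some of these members are printed for reference, namely the 3 with litter B highest and the 3 with it lowest that had the smallest litter p and 1 entry among the RefSeq promoters (build GRCm38.p6), which hold 58 of the 68 members. Each run is the 250 bases before the transcript start, 5′ to 3′ on the strand of the gene. Epha3 is at chr16:63864176-63864425 on the minus strand, Robo1 at chr16:72662899-72663148 on the plus strand (inside the longer Robo1 gene of GENCODE M21) and Ephb1 at chr9:102354694-102354943 on the minus strand. Sema7a is at chr9:57939862-57940111 on the plus strand, Plxnb3 at chrX:73756853-73757102 on the plus strand and Sema3e at chr5:14025026-14025275 on the plus strand. Capitals mark GC boxes (GGGCGG or its reverse complement).
Epha3: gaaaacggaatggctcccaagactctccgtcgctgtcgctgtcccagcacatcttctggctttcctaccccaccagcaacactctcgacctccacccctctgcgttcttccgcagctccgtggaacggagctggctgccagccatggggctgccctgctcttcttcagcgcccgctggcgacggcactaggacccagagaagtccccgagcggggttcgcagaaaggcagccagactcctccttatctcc
Robo1: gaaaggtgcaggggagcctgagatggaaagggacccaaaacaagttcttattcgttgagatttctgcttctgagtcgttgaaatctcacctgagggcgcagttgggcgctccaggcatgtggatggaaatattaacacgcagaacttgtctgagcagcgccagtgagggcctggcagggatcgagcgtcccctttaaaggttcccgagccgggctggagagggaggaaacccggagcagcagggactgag
Ephb1: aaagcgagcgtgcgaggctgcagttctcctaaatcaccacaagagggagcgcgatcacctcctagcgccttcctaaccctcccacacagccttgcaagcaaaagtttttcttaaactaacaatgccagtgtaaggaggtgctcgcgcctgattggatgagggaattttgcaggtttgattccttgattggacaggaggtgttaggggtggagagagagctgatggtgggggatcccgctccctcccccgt
Sema7a: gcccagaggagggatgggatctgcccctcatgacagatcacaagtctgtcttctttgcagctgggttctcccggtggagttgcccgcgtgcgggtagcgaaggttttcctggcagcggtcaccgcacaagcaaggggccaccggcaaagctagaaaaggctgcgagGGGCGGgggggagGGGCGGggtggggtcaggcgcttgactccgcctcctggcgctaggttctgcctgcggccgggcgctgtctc
Plxnb3: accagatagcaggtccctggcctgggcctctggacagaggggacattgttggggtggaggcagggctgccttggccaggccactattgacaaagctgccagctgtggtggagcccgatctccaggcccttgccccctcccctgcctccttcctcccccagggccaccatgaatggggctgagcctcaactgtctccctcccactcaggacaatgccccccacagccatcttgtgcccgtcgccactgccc
Sema3e: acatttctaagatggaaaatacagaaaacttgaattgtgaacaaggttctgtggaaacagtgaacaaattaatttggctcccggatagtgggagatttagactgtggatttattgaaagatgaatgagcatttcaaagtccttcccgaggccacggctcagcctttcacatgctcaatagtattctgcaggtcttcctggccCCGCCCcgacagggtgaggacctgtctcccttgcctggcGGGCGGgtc

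These windows held no TATA box (TATAAA), which 12.4% of all 32851 RefSeq windows and 2 of the 74 windows of members hold on either strand. The GC box GGGCGG was found in 32.7% of all windows and in 53 of the 74 of members (71.6%), and here 2 times each in Sema7a and Sema3e. The E-box CAGCTG, present in 13.0% of all windows, was found in Sema7a and Plxnb3, and AACAAT, a motif of SOX factors present in 9.42%, in Ephb1 and Plxnb3. None of these motifs contains another. The GC content was 62.8% for Epha3, 56.0% for Robo1 and 54.0% for Ephb1, against 66.4% for Sema7a, 65.2% for Plxnb3 and 48.0% for Sema3e. Its median was 52.4% over all windows and 64.4% over the 74 of members, so the motif shares above compare windows of unlike GC content. The GC contents of the 3 members with litter B highest lay within the range of the 3 with it lowest.

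Epha3, whose upstream bases open the list above, had the smallest litter p of all members. It was at 88.2 to 104 CPM in the 4 libraries of litter B, at 57.5 to 76.2 in the other 10 and at 57.5 to 61.8 in litter F (adjusted p = 3.6e-05 with edgeR). Robo1 was at 292 to 321 CPM in litter B, 215 to 264 in the others and 215 to 218 in litter F (adjusted p = 3.92e-05 with edgeR). Dcc, the netrin receptor, was at 93.8 to 104 CPM in litter B, 51.0 to 82.1 in the others and 51.0 to 64.6 in litter F (adjusted p = 4.65e-05 with edgeR). These 3 were named for having the smallest litter p. For each the litter B libraries of both genotypes lay above every other library, as they did for 7.45% of all genes.

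Ephb1, a receptor for B-type ephrins at the optic chiasm, was at 89.1 to 96.2 CPM in litter B and 64.6 to 81.9 in the others. Sema4c, a transmembrane ligand of B-type plexins, was at 61.9 to 74.1 and 46.5 to 59.5, and Efna4 at 5.86 to 7.16 and 3.40 to 4.89. The opposite order was seen for Sema7a, at 84.7 to 91.9 CPM in litter B, 95.5 to 132 in the others and 120 to 132 in litter F. Sema3e was at 19.2 to 20.6 CPM in litter B and 22.8 to 31.3 in the others, and its receptor Plxnd1 at 81.0 to 92.2 and 98.7 to 119. Ligand and receptor were thus both low in litter B. Plxnb3 was at 3.12 to 4.89 CPM in litter B, 8.38 to 10.02 in litter A and 8.19 to 8.32 in litter F, and its litter B range overlapped that of the other 10 libraries, which began at 4.61.

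Other members of the same systems followed the 2 patterns with smaller differences. The neuropilins, which bind class 3 semaphorins, were highest in litter B: Nrp2 was at 173 to 193 CPM there and 140 to 153 in litter F, and Nrp1 at 121 to 131 and 106 to 109. Their ligand Sema3c was at 89.0 to 97.9 CPM in litter B and 65.1 to 74.3 in litter F. The B-type ephrins Efnb1 (41.6 to 50.1 CPM in litter B, 34.98 to 36.2 in F) and Efnb2 (127 to 139, against 110.7 to 111.2) and the receptor Ephb2 (142 to 157 and 127 to 131) had the same order. Epha4 and Ephb6 had the opposite one, at 228 to 250 CPM in litter B and 268 to 293 in F, and at 75.3 to 79.8 and 92.0 to 97.4. For Nrp2, Nrp1, Sema3c, Efnb1, Efnb2, Ephb2, Epha4 and Ephb6 the B and F ranges did not overlap, although libraries of the other litters lay between or beside them. Ntn1 was at 63.3 to 78.2 CPM in litter B and 53.4 to 54.2 in F, and Slit3 at 8.54 to 9.41 and 9.40 to 12.6, where the ranges met.

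**Figure D5:**
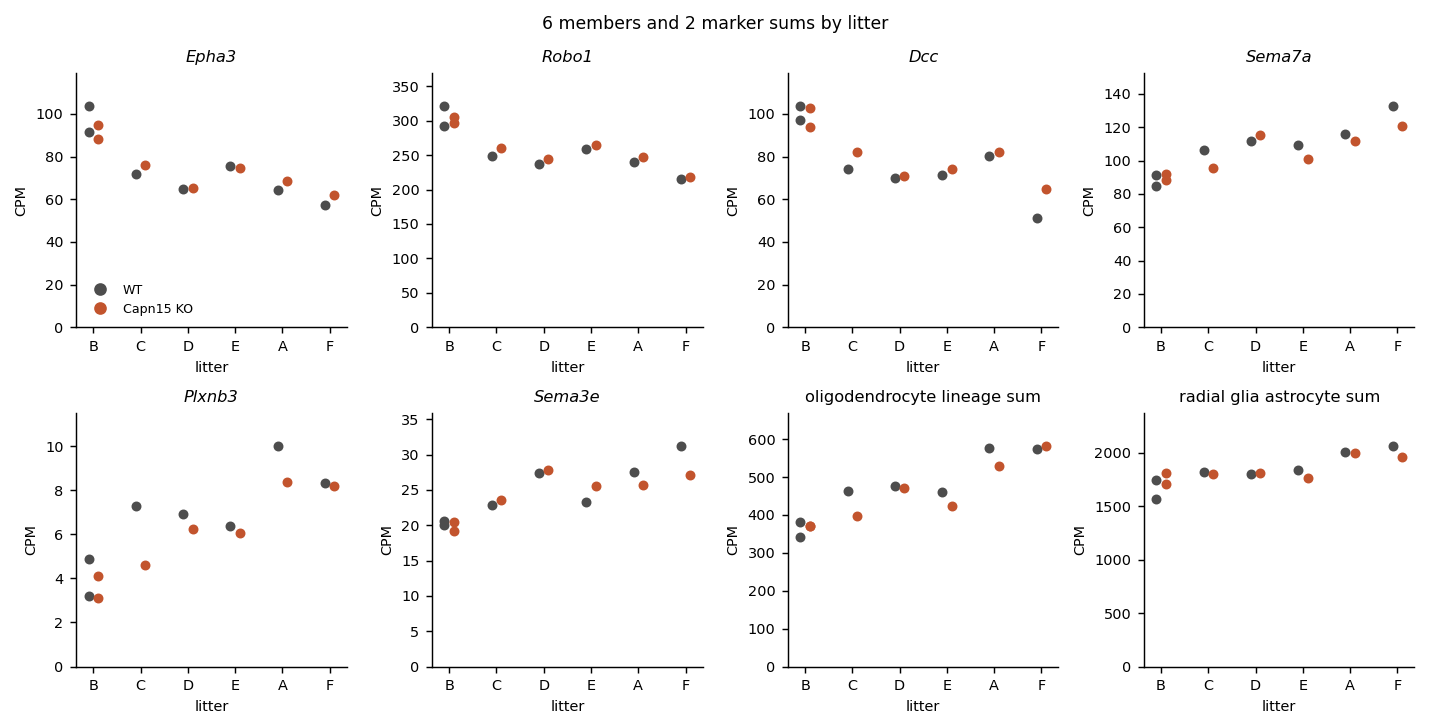
CPM of 6 members and the summed CPM of 2 marker lists by litter, with 1 point per library, WT in grey and Capn15 KO in orange. Epha3, Robo1 and Dcc are highest in litter B and lowest in litter F, and Sema7a, Plxnb3 and Sema3e and the oligodendrocyte lineage sum (341 to 381 in litter B, 574 to 583 in litter F) are lowest in litter B.

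Cell type markers moved with the litters too. The summed level of 7 oligodendrocyte lineage genes was 341 to 381 CPM in litter B, 397 to 464 in C, 425 to 462 in E, 471 to 477 in D, 528 to 576 in A and 574 to 583 in F, and all 7 were called between litters. The 7 radial glia and astrocyte markers summed to 1572 to 1810 CPM in litter B, 1994 to 2003 in A and 1958 to 2066 in F, with 6 called, although the B range overlapped those of C, D and E (1768 to 1840 together). The 6 called differed in direction. Slc1a3, Aqp4 and Gfap had their lowest litter mean in B, Vim and Nes their highest, and Aldh1l1 neither. Vim had a mean of 226 CPM in litter B and 188 in F, and Nes of 102 and 83.9. The 5 microglia markers summed to 62.0 to 73.7 CPM in litter B, below all other libraries, with 2 called. Other lists were high in litter B. The 8 caudal hindbrain Hox genes summed to 19.989 to 24.1 CPM there, just above the highest of the other 10 libraries at 19.977, with 4 called. The 5 red blood cell genes summed to 197 to 322 CPM in litter B and overlapped litter C at 149 to 200. Their sum was 31.0 to 35.4 CPM in litter D, and all 5 were called. The 8 neuron markers summed to 7144 to 7394 CPM in litter B and overlapped litter C at 7311 to 7443, with 5 called. These 5, Snap25, Syt1, Stmn2, Rbfox3 and Gap43, all had their lowest litter mean in B. Snap25 had a mean of 252 CPM in litter B and 347 in F, and Syt1 of 410 and 537. Tubb3 and Map2, which made up most of the sum, were not called. No marker was at 0 in all libraries, and the part of these markers in the litter differences of the guidance genes was not tested.

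The number of litter calls was much smaller without litter B. Without its 4 libraries edgeR called 1 member between the remaining 5 litters, Sema4c, and 196 genes in all (1.09%). That fit also had fewer libraries, and each litter left in it gave only 1 brain of each genotype. The absence of litter B and a loss of sensitivity therefore cannot be told apart. The column names give letter codes and nothing further about the litters. Of the 73 other guidance genes 30 were called between litters (29.6% of all genes were).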

How the data were processed

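RNA-SEQ counts per gene came from 7 WT and 7 Capn15 KO brains at P2. The authors trimmed reads with Trimmomatic, aligned them to GRCm38 with STAR and deposited raw counts, not normalized, for 17927 genes after a filter whose rule is not given in the sources used here. The labels name a stranded TruSeq kit with featureCounts, the paper's methods a ScriptSeq kit with HTSeq-count, and the strand setting is not given, so reads of genes that overlap on opposite strands may not be separated. Genotype was read from the labels, and letter codes in the column names were read as each brain's litter and sex, as the paper's methods mention 6 litters and both terms. A library held 37620954 to 70910163 counts, and the floor of 3 counts covers counting error only.

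The counts were fitted with edgeR 4.0.16 in R 4.3.3 (TMM factors, glmQLFit and glmQLFTest defaults, all 17927 genes, terms for litter, sex and genotype) and a Benjamini-Hochberg adjusted p under 0.05 over all genes. Log2 CPM used a prior count of 2. Standard errors were derived from the fold change and the F statistic. Exact permutation and sign-flip tests were two-sided and used no covariates. Exon lengths and positions are from GENCODE M21 (17915 genes found) and upstream sequences from RefSeq. Other tools were DESeq2 1.42.0, limma 3.58.1 and, in Python 3.11.15, numpy 2.4.6, scipy 1.17.1, pandas 2.3.3 and matplotlib 3.10.9. The fits were tested on simulated data for the same genes, with genotype changes larger than any fold measured in the members. That test therefore does not show how well folds as small as those of the members are found. Same-numbered brains carry the same letter code, read as the litter (the pairs numbered 2 and 3 are both B), and their deviations from the group means had a mean correlation of 0.12 (-0.47 to 0.44).

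The members and gene lists were chosen with earlier results of these data known. Named by rule were Capn15, members with an unadjusted genotype p under 0.05, all Slit and netrin system members, the 3 highest and 2 lowest levels and the extreme folds of each other class, the 3 smallest p for litter and sex, and listed pathway genes with an unadjusted p under 0.05. Ptgds, the marker genes, Ephb1, Ephb2, Epha5, Nrp1, Nrp2, Sema3c, Sema4c, Sema3d, Sema3e, Sema3f, Plxnd1, Sema4a, Sema3a and Plxna3 were singled out after their values were seen. Alternatives were DESeq2, the likelihood ratio test, limma-voom, RLE size factors, a filter on low counts, genotype alone, a replicate block, each library left out, pair 7 left out and, added after seeing the data, litter B left out.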

Additional observations from a re-analysis of the deposited data

Results flagged for a closer look

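In 138 groups of 7 libraries (each member and Capn15 in each genotype) the gap of the most extreme library to its nearest neighbour, as a share of the range, was compared with Dixon's 95% critical value. It was exceeded in 6 groups, and chance gives 6.9. The library labelled WT 7 was the lowest WT library for Efnb3 (a share of 0.719, at a log2 CPM of 7.29 with the next at 7.47), Plxna3 (0.597, 6.69 and 6.93), Sema3a (0.637, 5.79 and 6.02) and Capn15 (0.761, 4.23 and 4.64). The library labelled KO 7 was the highest KO library for Capn15 (0.647, 4.34 with the next at 3.87). The library labelled KO 6 was the lowest KO library for Sema4d, a ligand of Plxnb1 (0.598, 4.48 and 4.61). Why WT 7 recurs was not tested.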

How the results depend on the processing

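No member passed the adjusted threshold for genotype under 23 alternative fits, or for sex under the 22 that held a sex term. Over all genes, 1 was called by genotype, against 22 with DESeq2, 34 with the likelihood ratio test, 7 without pair 7, 0 without litter B and 0 to 7 with 1 library left out (7 without KO 7, 6 without WT 7). With a block for replicate number 0 were called, 8 members had an unadjusted p under 0.05, no call of a member changed, and other guidance genes at that p were 5 against 9. Members at that p were 8, against 1 with genotype alone, 5 without pair 7 and 5 to 14 with 1 library left out. Other guidance genes were 0 with genotype alone, 4 without pair 7 and 4 to 10 with 1 library left out. Members called by litter were 30, against 1 without litter B and 27 to 38 with 1 library left out. With 1 library left out the median fold ranged from -0.0041 to 0.029 for the ephrin, 0.0030 to 0.029 for the semaphorin and 0.0034 to 0.029 for the netrin system, and separated neighbours in the WT order from 3 to 6.

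Of 25 named genes 20 kept the sign of their fold throughout. Efnb1 (0.00051 with genotype alone, -0.051 to 0.032 with 1 library left out), Ntn1 (0.017, and -0.059 to 0.040), Robo3 (0.0075 without litter B, and -0.22 to 0.042), Slit2 (-0.0061 to 0.033) and Unc5b (-0.039 to 0.017) did not. The cause of these shifts was not tested. By exon length of the longest transcript, 7 of the 10 highest WT levels were the same. No member was at the floor of 3 counts in any library, and the widest standard error was that of Epha1, the member with the lowest count.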
